A study of Danio rerio with 10 samples.

Results

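The genes described here are 10 names from serine synthesis and one-carbon metabolism: phgdh, psat1, psph, shmt1, shmt2, mthfd2, mthfd1l, mthfd1b, aldh1l2 and ENSDARG00000037121, a mat2a gene. They were matched by symbol to 11 of the 32057 genes in the count files, because the name table gives the symbol MTHFD1 to 2 zebrafish genes without saying which is mthfd1b. Both are reported by ID. The genes were chosen by earlier results of these same libraries, mainly the difference between 800 and 0 ppb, so their values in that contrast are a description and carry no test. The libraries came from whole wild-type zebrafish embryos, of which 5 samples were kept without thallium (0 ppb), 3 in 200 ppb and 2 in 800 ppb thallium nitrate, between 6 and 48 hours post fertilisation. No allele, transgene or agent other than the thallium salt is named in the labels, and they do not say how many embryos or clutches a sample pooled, so p-values reflect only how far these samples spread, for which a technical source is possible.

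Serine is made from the glycolytic intermediate 3-phosphoglycerate by phgdh, psat1 and psph acting in that order. The serine hydroxymethyltransferases shmt1, in the cytosol, and shmt2, in mitochondria, split serine into glycine and a carbon unit carried by tetrahydrofolate. In mitochondria mthfd2 oxidises that unit, mthfd1l releases it as formate and aldh1l2 can burn it to carbon dioxide, while MTHFD1 takes formate back onto folate in the cytosol. MAT2A joins methionine to ATP to give S-adenosylmethionine, the methyl donor of the cell. In mammalian cells several of these genes are known targets of the transcription factor ATF4, which responds to amino acid shortage and other stresses.

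The libraries held 12.1 to 48.3 megareads, and each of the 11 genes had between 138 and 10466 reads in every library. Levels are counts per megaread (CPM) on TMM-scaled totals and are compared only between libraries, not between genes. Replicate 1 of 0 ppb and of 200 ppb was prepared in a hospital core, and a commercial provider prepared the other 8. The labels name no batch beyond that, but the ratio of both deposited count sets placed the provider's libraries in 3 further batches. Replicates 2 of 0 and 200 ppb formed batch 2, replicates 3 of both batch 3, and 0 ppb replicates 4 and 5 formed batch 4 together with both 800 ppb libraries. Differences were therefore taken from 2 fits. The first had the site of library construction as a term (the site fit), and the second had the 4 batches in its place (the batch fit). Some differences are printed from 1 fit only, which is then named. In whole embryos, fewer cells of a type and less RNA per cell cannot be told apart. Markers of liver, muscle, lens, red blood cells, neurons, dividing cells, epidermis and yolk syncytial layer, all expected in a whole embryo at this age, were detected in every library except for 1 of 10 lens genes that was at 0 in some.

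The first 2 enzymes of serine synthesis stood at 1.94 to 2.07 times their untreated level at 800 ppb, and the third did not. phgdh, which oxidises 3-phosphoglycerate and commits it to serine, was measured at 68.2, 102, 56.4, 82.2 and 69.5 CPM in 0 ppb replicates 1 to 5. It stood at 69.5, 113 and 60.2 CPM in 200 ppb replicates 1 to 3 and at 173 and 131 CPM in the 800 ppb libraries. Both 800 ppb libraries lay above every other library, and 0 and 200 ppb replicates 2 were the next highest. The fitted log2 difference of phgdh between 800 and 0 ppb was 0.96 (SE 0.25) by the site fit and 1.01 (SE 0.12) by the batch fit.

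psat1, the aminotransferase of the second step, was measured at 64.6, 75.7, 52.7, 79.0 and 60.4 CPM at 0 ppb. It stood at 65.1, 81.0 and 61.8 CPM at 200 ppb, and at 160 and 119 CPM at 800 ppb. The 800 ppb libraries again lay above all others, with replicate 1 higher than replicate 2. The fitted log2 difference was 1.05 (SE 0.18) by the site fit and 1.003 (SE 0.14) by the batch fit.

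psph, the phosphatase that releases free serine, was measured at 32.3, 36.8, 31.8, 37.7 and 36.2 CPM at 0 ppb. It stood at 30.4, 41.1 and 27.4 CPM at 200 ppb, and at 38.2 and 33.1 CPM at 800 ppb. The groups overlapped in part: 800 ppb replicate 1 lay just above the highest 0 ppb library and replicate 2 within the 0 ppb range, while the 200 ppb libraries reached beyond that range on both sides. The 0 ppb libraries spanned a 1.19-fold range, the narrowest of the 11 genes. Its fitted log2 difference at 800 ppb was -0.05 (SE 0.11) by the batch fit, with an approximate 95% interval of -0.37 to 0.27.

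**Figure D1:**
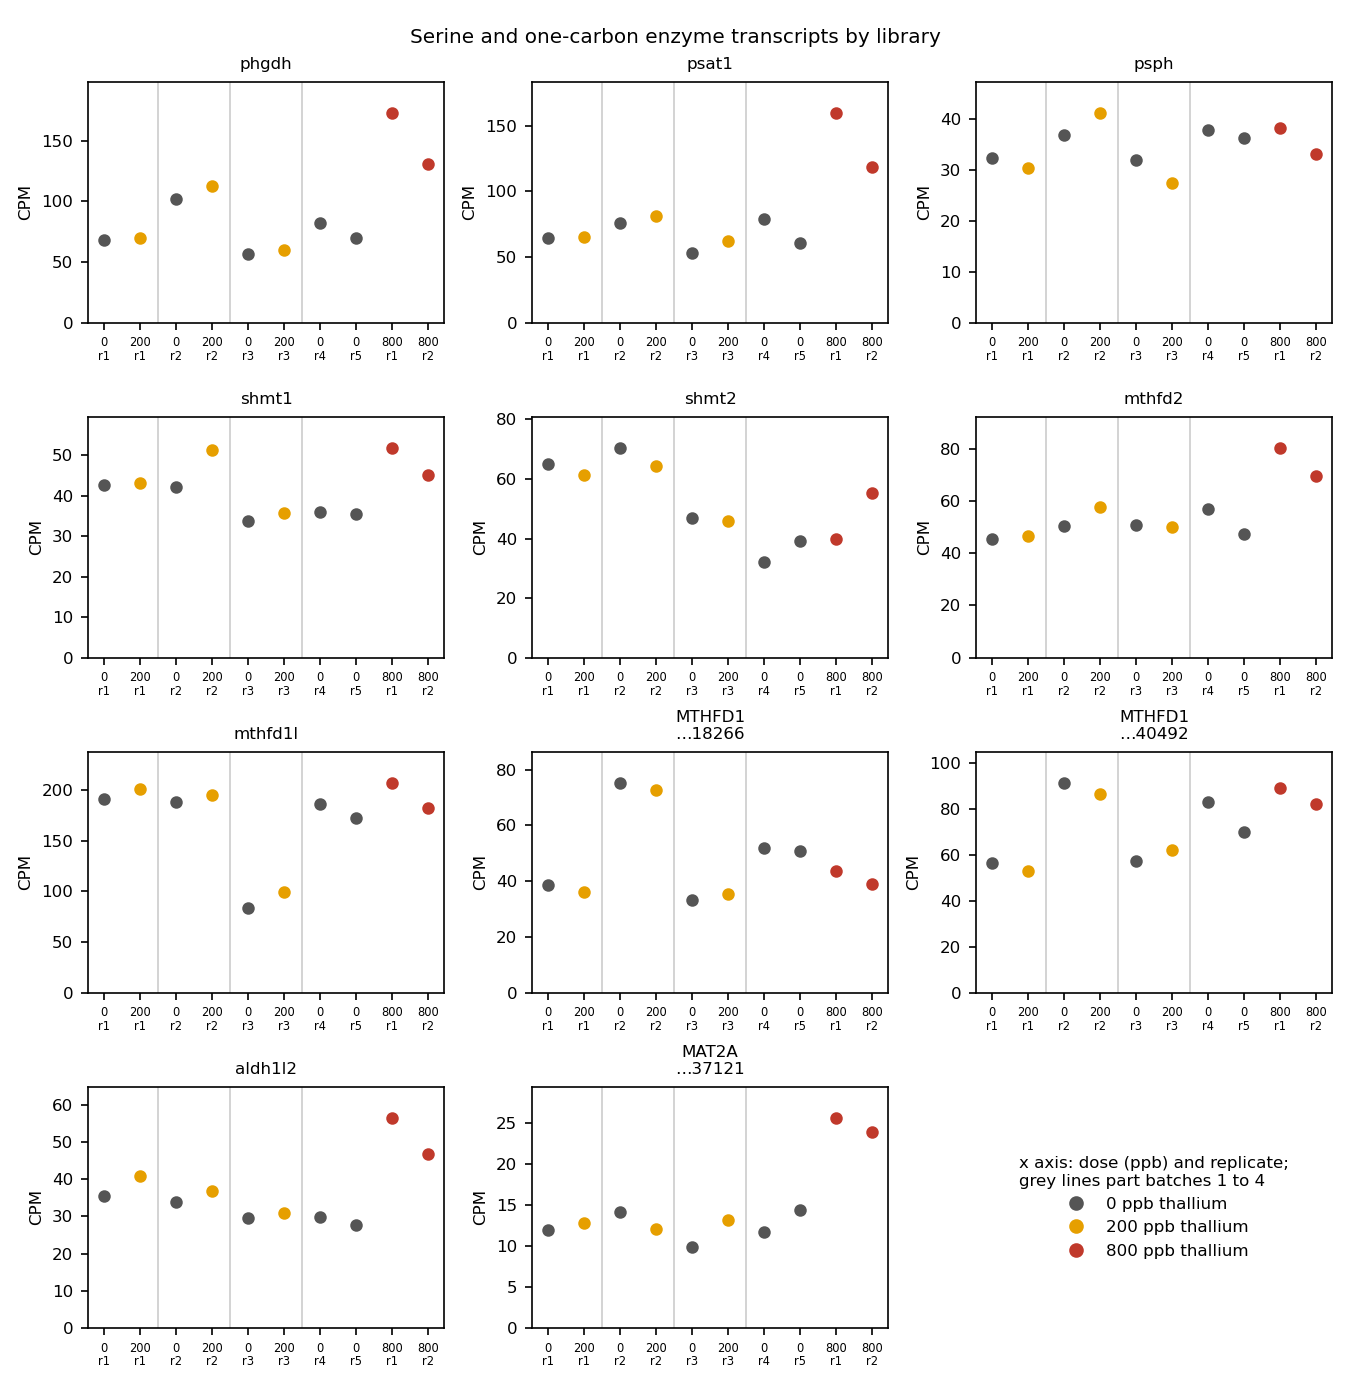
Level of each enzyme gene in every library, as CPM on an axis from 0; each point is 1 library, coloured by thallium dose, and grey lines part the 4 batches. The 800 ppb points stand above all 0 ppb points for phgdh, psat1, shmt1, mthfd2, aldh1l2 and MAT2A ENSDARG00000037121, and for psph 1 of the 2 lies within the 0 ppb range and the other just above it.

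The uneven differences along the serine pathway can be read within each library, where scaling cancels. The number of phgdh reads per psph read was 1.77 to 2.79 across the 8 libraries at 0 and 200 ppb, and 4.53 and 3.96 at 800 ppb. For psat1 per psph it was 1.66 to 2.25, and then 4.19 and 3.59. The size of such a ratio depends on transcript length, so only its difference between libraries is read. The ratio of psat1 to phgdh, by contrast, ran from 0.72 to 1.03 at 0 and 200 ppb and was 0.92 and 0.91 at 800 ppb, inside that range.

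**Figure D2:**
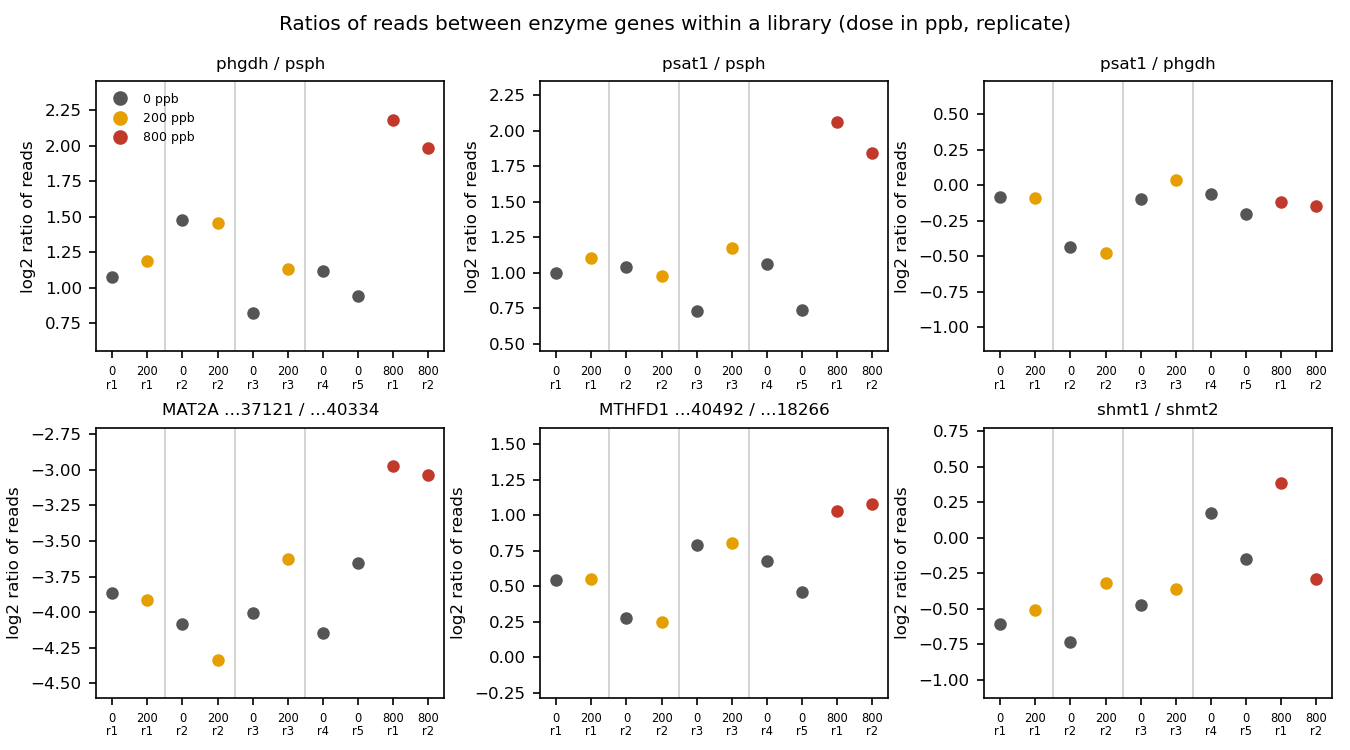
Ratio of reads between 2 enzyme genes within each library, as log2, with each point 1 library and grey lines between batches. phgdh and psat1 relative to psph are highest in the 800 ppb libraries, psat1 relative to phgdh is not, and the ratio of MAT2A ENSDARG00000037121 to the other MAT2A gene is also highest at 800 ppb.

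Of the serine hydroxymethyltransferases, shmt1 was higher at 800 ppb in both fits, while the value of shmt2 depended on the batch. Cytosolic shmt1 was measured at 42.7, 42.2, 33.8, 36.1 and 35.5 CPM at 0 ppb, 43.1, 51.4 and 35.8 CPM at 200 ppb, and 51.8 and 45.2 CPM at 800 ppb. Both 800 ppb libraries lay above each 0 ppb library, and 200 ppb replicate 2 lay between them. The fitted log2 difference of shmt1 at 800 ppb was 0.37 (SE 0.16) by the site fit and 0.44 (SE 0.10) by the batch fit.

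Mitochondrial shmt2 was measured at 65.1, 70.4, 47.0, 32.1 and 39.3 CPM at 0 ppb, 61.2, 64.3 and 46.0 CPM at 200 ppb, and 39.8 and 55.3 CPM at 800 ppb. The 0 ppb libraries of batch 4 were the lowest of all, 0.70 below the provider's other 0 ppb libraries on the log2 scale. The fitted log2 difference of shmt2 at 800 ppb was -0.02 (SE 0.28) by the site fit and 0.41 (SE 0.14) by the batch fit. It also rested on single libraries: by the batch fit it was 0.15 without 800 ppb replicate 2 and 0.63 without 800 ppb replicate 1.

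Of the mitochondrial folate enzymes, mthfd2 and aldh1l2 were higher at 800 ppb in both fits. mthfd2, the methylene-tetrahydrofolate dehydrogenase, was measured at 45.4, 50.2, 50.9, 56.9 and 47.6 CPM at 0 ppb, 46.7, 57.6 and 50.02 CPM at 200 ppb, and 80.3 and 69.7 CPM at 800 ppb. Its 800 ppb libraries stood apart from the rest, with a log2 difference of 0.54 (SE 0.12) by the site fit and 0.53 (SE 0.11) by the batch fit.

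aldh1l2, the mitochondrial formyl-tetrahydrofolate dehydrogenase, was measured at 35.4, 33.9, 29.5, 29.9 and 27.6 CPM at 0 ppb, 40.9, 36.8 and 31.0 CPM at 200 ppb, and 56.4 and 46.9 CPM at 800 ppb. No 0 or 200 ppb library reached the level of either 800 ppb library. The log2 difference at 800 ppb was 0.78 (SE 0.13) by the site fit and 0.85 (SE 0.11) by the batch fit.

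mthfd1l, which releases formate in mitochondria, was measured at 191, 189, 83.4, 186 and 172 CPM at 0 ppb, 200.7, 196 and 99.8 CPM at 200 ppb, and 207 and 183 CPM at 800 ppb. Both libraries of batch 3 were far below the others at either dose, and the 800 ppb libraries lay near the rest. With the batch fit the log2 difference at 800 ppb was 0.12 (SE 0.08), against 0.32 (SE 0.31) by the site fit.

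The cytosolic MTHFD1 genes had fitted differences of opposite sign at 800 ppb. MTHFD1 ENSDARG00000018266 was measured at 38.7, 75.1, 33.1, 51.9 and 50.6 CPM at 0 ppb, 36.2, 72.6 and 35.4 CPM at 200 ppb, and 43.6 and 38.9 CPM at 800 ppb. It was the single gene of the 11 with both 800 ppb libraries below both 0 ppb libraries of batch 4, with a log2 difference of -0.31 (SE 0.10) by the batch fit. By the site fit the log2 difference was -0.37 (SE 0.31), and over all 0 ppb libraries the groups overlapped.

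MTHFD1 ENSDARG00000040492 was measured at 56.3, 91.2, 57.3, 82.9 and 69.8 CPM at 0 ppb, 52.9, 86.2 and 61.9 CPM at 200 ppb, and 89.1 and 82.3 CPM at 800 ppb. Its groups overlapped, and the log2 difference at 800 ppb was 0.17 (SE 0.10) by the batch fit and 0.18 (SE 0.19) by the site fit. Reads of this gene per read of ENSDARG00000018266 numbered 1.19 to 1.75 at 0 and 200 ppb, and 2.04 and 2.12 at 800 ppb. How the authors' counting treated reads shared by these copies is not given in the sources used here, so the level of each is uncertain.

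MAT2A ENSDARG00000037121 was measured at 12.001, 14.1, 9.85, 11.7 and 14.3 CPM at 0 ppb, 12.7, 12.04 and 13.2 CPM at 200 ppb, and 25.6 and 24.0 CPM at 800 ppb. The 800 ppb libraries lay well above all others and close to each other. The log2 difference at 800 ppb was 0.99 (SE 0.17) by the site fit and 0.93 (SE 0.16) by the batch fit. The second gene with this symbol, MAT2A ENSDARG00000040334, stood at 192 ± 31.5 CPM (SD, n = 5) in untreated embryos and 198 ± 3.05 CPM (SD, n = 2) under 800 ppb, with a log2 difference of 0.04 (SE 0.08) by the batch fit. Reads of ENSDARG00000037121 per read of ENSDARG00000040334 were 0.049 to 0.081 at 0 and 200 ppb, and 0.128 and 0.122 at 800 ppb. The name table does not tell which of them is mat2aa and which mat2ab, and their reads may also be shared.

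Across the 11 genes, both 800 ppb libraries lay above all 5 libraries at 0 ppb in 6, against 4.864% of all 20867 genes tested. They lay above both 0 ppb libraries of batch 4 in 7, against 16.52% of all genes, and below both in 1, against 16.27%. The median log2 difference of the 11 genes at 800 ppb was 0.37 by the site fit and 0.44 by the batch fit, and over all genes -0.01 and 0.00. A gene is called here when its p from edgeR's quasi-likelihood test, adjusted over all genes by the Benjamini-Hochberg method, is under 0.05. At 800 ppb the site fit called 9 genes, 0.0431% of those tested and none of the 11, and the batch fit called 65 genes, 0.311% of those tested and 4 of the 11. Because the genes were selected on this contrast, nothing is read from these counts. Leaving out 1 library at a time by the batch fit, phgdh ranged from 0.79 to 1.19, psat1 from 0.77 to 1.21, aldh1l2 from 0.71 to 0.97 and MAT2A ENSDARG00000037121 from 0.79 to 1.09 on the log2 scale. For phgdh, psat1 and aldh1l2 the lowest value came without 800 ppb replicate 1.

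**Figure D3:**
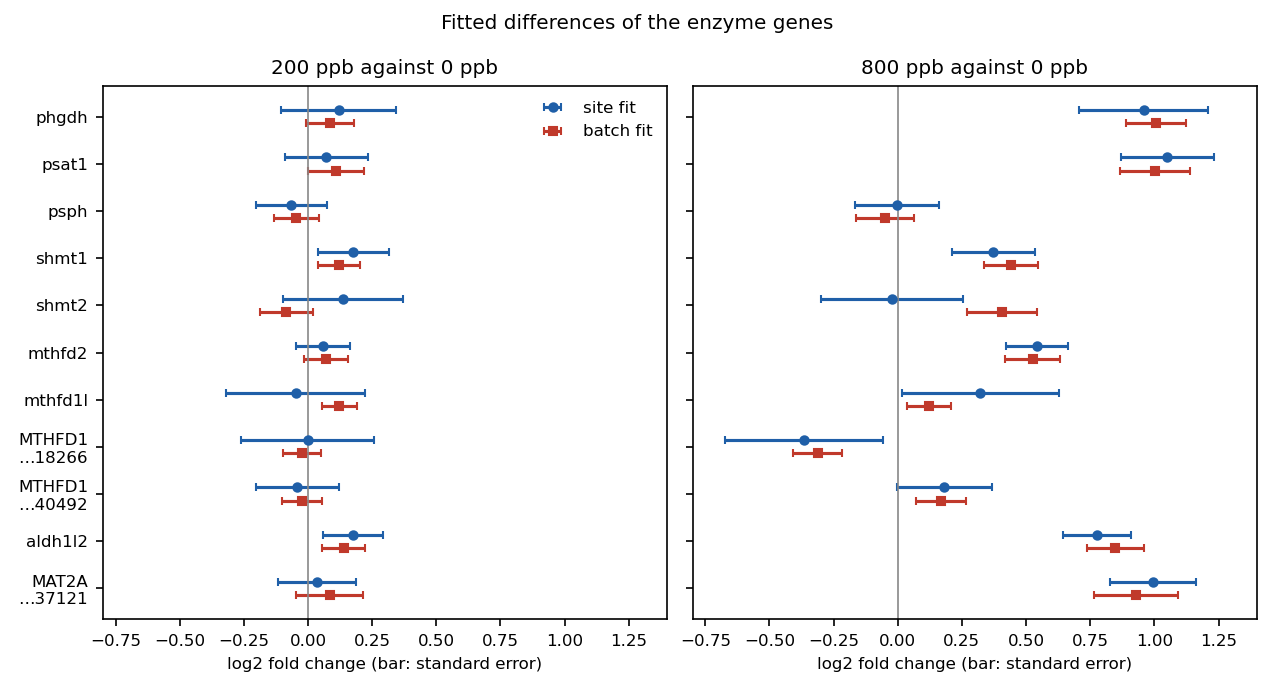
Fitted log2 fold change of each enzyme gene against 0 ppb, at 200 ppb on the left and 800 ppb on the right, with bars of 1 standard error; circles are the site fit and squares the batch fit. At 200 ppb the estimates lie near 0, and at 800 ppb those of phgdh, psat1 and MAT2A ENSDARG00000037121 lie near 1 in both fits.

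The comparison of 200 with 0 ppb asked whether the lower dose moved the same transcripts. It shares the 0 ppb libraries with the contrast that chose the genes, so it is not independent of that choice. No difference was detected: none of the 11 genes was called, with adjusted p of 0.99996 for each by the site fit and 0.99991 by the batch fit in edgeR's quasi-likelihood test, and 0 of the 11 had an unadjusted p under 0.05. DESeq2 and limma-voom called 0 of them as well. Over all genes the test called none either, 0.0% of those tested by the site fit and 0.0% by the batch fit. Before adjustment, its p fell below 0.05 in 120 genes (0.575%) by the site fit and in 230 (1.1%) by the batch fit. With no true difference, a fraction of about 0.05 would fall there, so both fits were conservative at this dose. The lack of calls therefore says little about modest differences. The log2 difference of psat1 was 0.07 (SE 0.16) by the site fit, with an approximate 95% interval of -0.33 to 0.47, and that of phgdh 0.12 (SE 0.22), with an interval of -0.43 to 0.67. With the batch fit the intervals were -0.19 to 0.41 for psat1 and -0.18 to 0.35 for phgdh. The intervals leave room for modest differences in either direction. The difference between the doses was not tested, since the 800 ppb values chose the genes.

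Within the 3 same-numbered pairs of 0 and 200 ppb libraries, 5 of the 11 genes were higher at 200 ppb in every pair, namely phgdh, psat1, shmt1, mthfd1l and aldh1l2. Of all genes, 11.55% were higher in every pair. Because the 0 ppb libraries also served to choose the genes, nothing is read from this count. By the site fit 7 of the 11 genes lay above 0 at 200 ppb, against 49.1% of all genes. It was 2 without 200 ppb replicate 2 and 11 without 200 ppb replicate 3. The median log2 difference of all genes was -0.005 and -0.01 in those 2 fits. The pairwise log2 differences of aldh1l2 were 0.21, 0.12 and 0.07, and those of psat1 were 0.01, 0.10 and 0.23. shmt2 was lower at 200 ppb in every pair, at -0.09, -0.13 and -0.03, as were 12.43% of all genes. MAT2A ENSDARG00000037121, among the largest differences at 800 ppb, went both ways, at 0.09, -0.23 and 0.42. The largest log2 difference of the 11 genes at 200 ppb was 0.18, for shmt1 (SE 0.14) and aldh1l2 (SE 0.12), by the site fit.

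The pathways that feed and drain serine and folate were described by 7 lists holding 95 further genes that were tested. These lists were chosen with earlier results of these data known, so their p-values are not independent of that choice. None of the 95 was called at 200 ppb in either fit, nor at 800 ppb by the site fit. Unadjusted p under 0.05 in the site fit was found at 200 ppb for 1 gene, GSS, and at 800 ppb for 5 genes of glycine cleavage and catabolism and 4 of transsulfuration and glutathione synthesis. Over all genes these were 120 (0.575%) at 200 ppb and 993 (4.76%) at 800 ppb. DESeq2 called 1 of the 95 at 800 ppb and limma-voom 0. With the batch fit at 800 ppb 2 were called, both higher. GLDC, the decarboxylase of the glycine cleavage system, was measured at 18.6, 17.3, 17.1, 20.9 and 15.9 CPM at 0 ppb and at 32.6 and 28.5 CPM at 800 ppb. Its log2 fold change was 0.74 (SE 0.14, adjusted p = 0.0394 in edgeR). cbsb, a cystathionine beta-synthase gene that joins serine to homocysteine, was measured at 54.7, 78.1, 78.3, 63.6 and 66.0 CPM at 0 ppb and at 91.1 and 84.4 CPM at 800 ppb. Its log2 fold change was 0.44 (SE 0.09, adjusted p = 0.0446 in edgeR). Both 800 ppb libraries lay above all 0 ppb libraries for either gene. The calls were marginal: with 1 library left out, GLDC was called in 2 of 10 fits, with adjusted p up to 0.235, and cbsb in 1 of 10, with adjusted p up to 0.219. GLDC kept its call only without 0 ppb replicate 4 or 800 ppb replicate 2, and cbsb only without 800 ppb replicate 2.

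Among 18 genes of glycine cleavage and of serine or glycine catabolism, 1 was called by the batch fit and the median log2 fold change was -0.05. Of the 18, 6 lay above 0. AMT, the aminomethyltransferase of the same complex, stood at -0.37 (SE 0.16), and DMGDH, which demethylates dimethylglycine, at -0.37 (SE 0.09), neither called. Among 18 genes of the folate cycle and folate transport none was called and the median was 0.21, with ALDH1L1, the cytosolic counterpart of aldh1l2, at 0.40 (SE 0.11) and MTRR, which reactivates methionine synthase, at 0.21 (SE 0.15). Among 16 genes of the methionine cycle and methyl transfer none was called and the median was 0.02, with the glycine methyltransferase GNMT at 0.28 (SE 0.17), the guanidinoacetate methyltransferase GAMT at -0.06 (SE 0.08) and AHCYL1 at 0.10 (SE 0.10).

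Among 8 genes of transsulfuration and glutathione synthesis 1, cbsb, was called, and the median was 0.37. In that list CTH ENSDARG00000074301, which releases cysteine from cystathionine, stood at 0.48 (SE 0.10, adjusted p = 0.0598 in edgeR) and GCLC, the catalytic subunit of glutamate-cysteine ligase, at 0.39 (SE 0.10, adjusted p = 0.177). Among 17 genes of purine and thymidylate synthesis, which use the carbon units that folate carries, none was called and the median was -0.05, with IMPDH2 at 0.11 (SE 0.08), DUT at -0.15 (SE 0.16) and PFAS at -0.02 (SE 0.09). Among 10 genes of glycolysis around 3-phosphoglycerate none was called and the median was -0.01, with GAPDHS at 0.26 (SE 0.13), pgam1b at 0.01 (SE 0.09) and BPGM at 0.15 (SE 0.16). Among 11 genes of serine use in lipid synthesis none was called and the median was -0.02, with serinc2 at -0.17 (SE 0.11) and the serine palmitoyltransferase subunits SPTLC1 at -0.27 (SE 0.14) and SPTLC3 at -0.15 (SE 0.18). Over all genes the median was 0.00 in the batch fit. In the order given, 4, 7, 2, 4, 2, 0 and 0 genes of these lists had an unadjusted p under 0.05 in it, as did 1528 of all 20867 genes (7.32%). By the site fit the list medians were, in the same order, -0.16, 0.11, 0.005, 0.18, -0.08, -0.05 and -0.13, and -0.01 over all genes. The genes named from each list are those with the smallest p in the site fit, so they are not always those with the smallest p in the batch fit, whose values are printed.

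**Figure D4:**
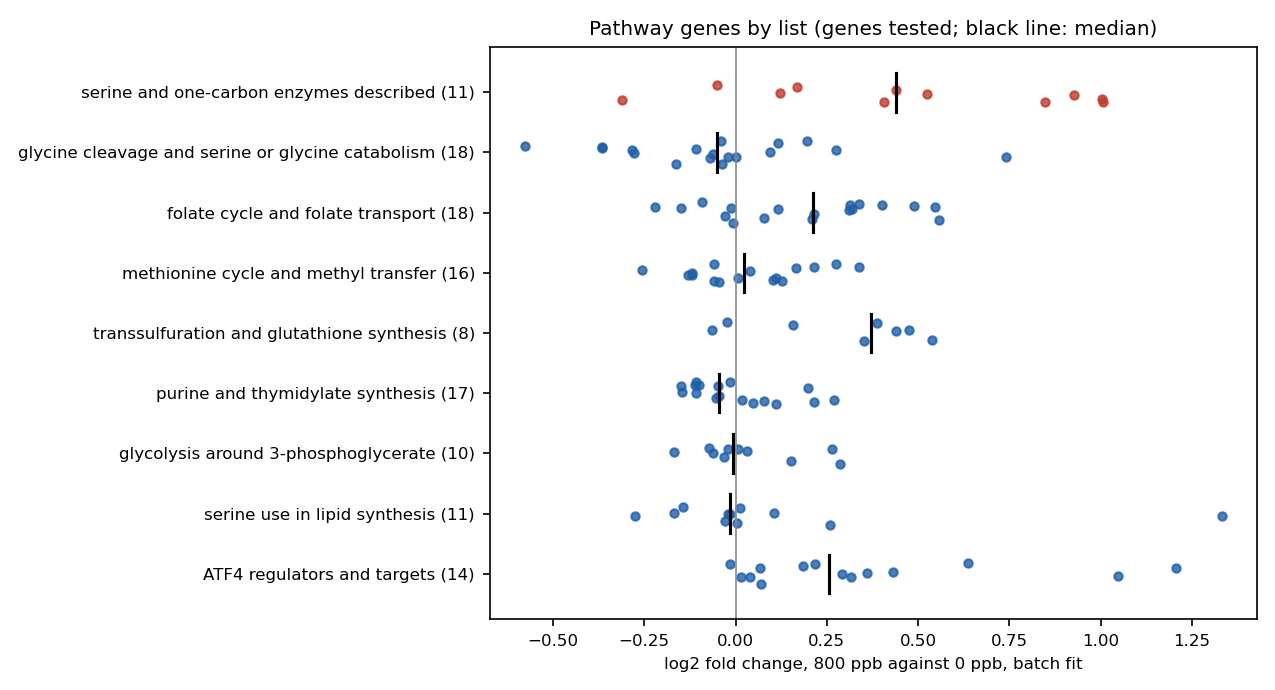
Log2 fold change at 800 against 0 ppb, by the batch fit, of each tested gene of the 11 enzymes (top row) and of 8 other lists; points are genes, the black line is the list's median and the number of genes is in brackets. Genes of glycine cleavage, purine synthesis, glycolysis and lipid synthesis centre near 0, with GLDC at 0.74 as the highest point of its row.

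At 200 ppb the 2 genes with the smallest p of each list had the following log2 differences by the site fit, none called. In transsulfuration and glutathione synthesis, GSS, glutathione synthetase, stood at 0.50 (SE 0.23) and CSAD, which makes hypotaurine, at 0.24 (SE 0.12). SLC46A1, a folate transporter, stood at 0.39 (SE 0.25) and SFXN2 at 0.16 (SE 0.18). ENOPH1 and SRM of the methionine cycle list stood at -0.13 (SE 0.12) and -0.14 (SE 0.14), and PFAS and TK1 of the nucleotide list at 0.25 (SE 0.19) and 0.21 (SE 0.16). GRHPR and grhprb stood at -0.24 (SE 0.28) and 0.12 (SE 0.15), BPGM and ENO1 at -0.29 (SE 0.22) and 0.14 (SE 0.19), and PTDSS1 and SPTLC3 at 1.02 (SE 0.67) and 0.22 (SE 0.14). PTDSS1 was measured at 0.38 ± 0.32 CPM (SD, n = 5) at 0 ppb, so its value rests on few reads. By the batch fit, again none called, GSS and CSAD stood at 0.29 and 0.18, and SLC46A1 and SFXN2 at 0.14 and 0.01. ENOPH1 and SRM stood at -0.08 and -0.05, and PFAS and TK1 at 0.04 and 0.06. GRHPR and grhprb stood at -0.32 and -0.03, BPGM and ENO1 at -0.01 and -0.04, and PTDSS1 and SPTLC3 at 0.55 and 0.20.

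Of 14 tested ATF4 regulators and targets, 1 was called at 800 ppb by the site fit and 3 by the batch fit, all higher. Of all genes tested, 0.0431% and 0.311% were called in these fits. The list, chosen with earlier results of these data known, had a median log2 fold change of 0.25 and 0.26. The ATF4 genes themselves were not called: by the batch fit atf4a stood at 0.07 (SE 0.08) and atf4b at 0.29 (SE 0.07, adjusted p = 0.113 in edgeR). By the site fit they stood at 0.14 (SE 0.19) and 0.43 (SE 0.15). For atf4b the 800 ppb libraries, at 409 and 418 CPM, lay above every 0 ppb library, the highest of which held 340 CPM. For atf4a the groups overlapped. ASNS, asparagine synthetase, had a log2 fold change of 1.04 (SE 0.14, adjusted p = 0.0441 in edgeR) by the site fit and 1.05 (SE 0.13, adjusted p = 0.00148) by the batch fit. sesn2, a stress-induced regulator of growth signalling, was at 1.21 (SE 0.18, adjusted p = 0.00536) and atf5b, a transcription factor related to ATF4, at 0.64 (SE 0.12, adjusted p = 0.0258), both by the batch fit. With 1 library left out, the batch fit called ASNS in 10 of 10 fits, sesn2 in 8 and atf5b in 1, while the site fit called ASNS in 1 of 10, with adjusted p up to 0.999. sesn2 lost its call without 0 ppb replicate 5 or 800 ppb replicate 1, and atf5b kept its call only without 800 ppb replicate 2. ASNS kept its call by the site fit only without 0 ppb replicate 2. None of the list was called at 200 ppb, where ASNS stood at 0.20 (SE 0.13), TRIB3 at -0.16 (SE 0.11) and sesn2 at 0.31 (SE 0.21) by the site fit. By the batch fit sesn2 stood at 0.38 (SE 0.14) at 200 ppb, the 1 gene of the list with an unadjusted p under 0.05, at an adjusted p of 0.9999 in edgeR.

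The genes whose levels followed psat1 most closely over the 10 libraries were ranked by Pearson correlation of log2(CPM + 1) among 16221 genes with a symbol and a mean of at least 1 CPM. They were TARS1, the threonyl-tRNA synthetase (r = 0.97), sesn2 (0.96), phgdh (0.95), GLDC (0.95) and LRRC58 (0.94). LRRC58 had low means of 0.78, 0.84 and 2.32 CPM at 0, 200 and 800 ppb. It passed the limit of 1 CPM only through the 800 ppb libraries, so nothing is read from its rank. For phgdh they were TARS1 (0.97), LXN (0.97), HSPA8 ENSDARG00000068992 (0.96), psat1 (0.95) and sesn2 (0.95). Of the other enzymes, mthfd2 ranked 7 for psat1, MAT2A ENSDARG00000037121 19 and aldh1l2 33, while psph ranked 1755 and shmt2 10395. The libraries share batches and the 2 at 800 ppb are the highest for both query genes, so these correlations describe the same contrast again.

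Cell composition was looked at through the marker lists. The summed level of 12 genes of dividing cells, which use much serine and folate, ran from 1314 to 1994 CPM at 0 ppb, 1691 to 1706 CPM in the batch 4 controls, and stood at 1474 and 1644 CPM at 800 ppb. With the batch fit 10 of its 11 tested genes lay below 0 at 800 ppb, while 50.5% of all genes lay above 0. The list's median was -0.16 and none was called. Of the 11, 4 had an unadjusted p under 0.05 in edgeR, as did 7.32% of all genes. Liver markers summed to 3787 to 4239 CPM in the batch 4 controls and to 3757 and 4509 CPM at 800 ppb. Fast muscle markers summed to 48250 and 49000 CPM in the batch 4 controls and to 46790 and 47890 CPM at 800 ppb, with none of the 8 genes called. Of the lens, red blood cell, neuron and epidermis lists no gene was called at 800 ppb by the batch fit, and their medians were 0.16, -0.06, -0.02 and -0.11. Yolk syncytial layer markers summed to 7054 to 7911 CPM in the batch 4 controls and to 7568 and 8585 CPM at 800 ppb, with a list median of 0.01. Of its 6 genes 1 was called, ctsla, a cathepsin L gene, which was measured at 440.2 and 362 CPM in the batch 4 controls and at 1154 and 979 CPM at 800 ppb. Its log2 fold change of 1.41 (SE 0.10, adjusted p = 6.74e-06 in edgeR) by the batch fit exceeded that of each of the 11 enzymes, and by the site fit it was 0.98 (SE 0.23), not called. The summed level of the list includes ctsla, so it does not describe the layer apart from that gene. By the batch fit 4 of the 6 genes lay above 0 and 2 below, among them apoa4b.1 at -0.31 (SE 0.09), not called. No marker gene was called at 200 ppb in either fit. The part of cell composition in the values of the 11 enzymes was not tested.

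The authors' second set of counts gave another reading of the same libraries. For the provider's 8 libraries, the deposited files held 0.84 to 0.89 times as many reads in total as the series table, but 0.59 to 0.70 times for phgdh, 0.61 to 0.76 for psat1, 0.58 to 0.74 for shmt1 and 0.82 to 0.94 for aldh1l2. For psph it was 0.66 to 0.76 and for mthfd1l 0.63 to 0.92. The level of phgdh, psat1, psph, shmt1 and mthfd1l thus depends on the count set. Their difference within batch 4 did so little. The log2 differences between the 800 and 0 ppb libraries were taken in the reads recovered from the series table and in the count files. Recovered reads were scaled by plain library totals and the count files by TMM, so the values also differ in scaling. The log2 differences were 1.04 and 0.99 for phgdh, 0.997 and 0.996 for psat1, and 0.37 and 0.43 for shmt1. For aldh1l2 they were 0.85 and 0.84, and for MAT2A ENSDARG00000037121 0.98 and 0.94. For psph they were -0.10 and -0.06, and for mthfd1l 0.09 and 0.12. By the site fit psph at 800 ppb stood at -0.15 (SE 0.18) in the recovered reads and -0.002 (SE 0.16) in the count files.

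psat1 and mthfd2 lie near each other on the same chromosome, with 14 protein-coding genes between them in the RefSeq gene order of assembly GRCz12tu, which is not the build of the files. Of those 14, 10 were measured, and their median log2 difference at 800 ppb by the batch fit was -0.01, from -0.61 to 0.43. psat1, at 1.003, and mthfd2, at 0.53, lay above all of the 10. Both were chosen with this contrast in view and their neighbours were not, so nothing is read from that order. A gene named mat2ab lies on the same chromosome, with 6 protein-coding genes between it and psat1. Whether it is MAT2A ENSDARG00000037121 could not be told.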

How the data were processed

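Each library came with a file of whole-number read counts by Ensembl gene, as deposited by the authors. The 10 files share 32057 genes, which were used, and 463 features present only in the hospital core's files were left out. A table for the whole series, also deposited by the authors, gives log2 values for 18963 genes. With the logarithm and a prior count of 2 undone, 100% of its low values were whole reads, within 0.05 reads. For the hospital core these reads equalled the files, and for the provider they were a different count set. FastQC, STAR, cutadapt and edgeR are listed without versions, and GRCz11 as the build, per the submitters' processing notes. The strand setting was not given in the sources used here, nor was the counter, so overlapping genes on opposite strands could not be told apart.

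The fit over all 10 libraries used edgeR 4.0.16 (R 4.3.3), with TMM scaling, filterByExpr by dose, and terms for site and dose. Its two-sided quasi-likelihood F-test was adjusted by the Benjamini-Hochberg method over 20867 genes. All 11 enzyme genes passed the filter on low counts. The 800 ppb group of 2 libraries drew its spread from all groups. Standard errors of the edgeR fits were worked back from the test, as the absolute log2 difference over the square root of its F statistic. Approximate 95% intervals use this standard error and the residual degrees of freedom, 6 in the site fit and 4 in the batch fit. The 4 batches came from the log ratio of both count sets over 13232 genes with at least 50 reads. Its correlation was 0.903 to 0.952 within and 0.748 to 0.818 between 3 clusters of provider libraries, a number that was set and not estimated. Same-numbered 0 and 200 ppb libraries deviated together from their group means, with correlations of 0.928, 0.591 and 0.758, and were taken as pairs. The alternatives tried were median-of-ratios scaling, no filter, DESeq2 1.42.0, voom in limma 3.58.1, the batch fit, a replicate block, the provider's libraries alone, the recovered reads and each library left out. The scripts were tested on simulated data that held no site or batch effect, so that test does not show how the fits act under one.

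The enzyme genes and the other lists were chosen with earlier results of these data known. Of 189 list entries beyond the enzymes, 149 matched the same symbol, 26 matched after dropping a paralog letter and 14 had no match. Named in the text are every enzyme gene, the up to 3 genes of each pathway list with the smallest p in the site fit at 800 ppb and up to 2 at 200 ppb, and the 5 genes most like psat1 and phgdh. Of these genes, 1 is not reported here. Genes of the marker lists are given as list sums and counts, except ctsla and apoa4b.1, named after their values were seen. The genes atf4a and atf4b were also named after their values were seen. Promoter sequences were not used here, so a planned motif search was not run.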

Additional observations from a re-analysis of the deposited data

Results flagged for a closer look

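Among the 0 ppb values of the 11 enzyme genes, 1 library stood far from the others. mthfd1l was lowest in 0 ppb replicate 3, at 83.4 CPM against 172 CPM in the next library, and that gap was 0.825 of the group's whole range, above the critical value of 0.71 in Dixon's test for 5 samples. Chance gives a gap above that critical value in about 1 in 20 groups drawn from 1 population, and 11 groups were looked at. The 5 libraries at 0 ppb came from 4 batches, which the test does not allow for. The 200 ppb library of the same batch was also low, at 99.8 CPM. In the reads recovered from the series table the same libraries stood at 106 and 126 reads per megaread, the lowest of the 10. The other 0 ppb libraries stood there at 217, 181, 168 and 165, so the gap was smaller, and Dixon's test was not run on them. For mthfd1l the count files held 0.63 and 0.66 times the recovered reads in the 2 low libraries. In the provider's other libraries it was 0.86 to 0.92, so part of the gap depends on the count set.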

How the results depend on the processing

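At 200 ppb no enzyme gene was called under any of the 18 alternatives run, and of 198 fitted values 170 kept their sign. Of those that turned, all uncalled, the batch fit gave shmt2 -0.085 and mthfd1l 0.123, and the replicate block over 0 and 200 ppb libraries gave -0.086 and 0.118 while calling 2 genes in all instead of 0. MTHFD1 ENSDARG00000018266 turned to 0.005 with median-of-ratios scaling, 0.008 without a filter, 0.006 in DESeq2, 0.043 in the provider's libraries and 0.012 in the recovered reads, where mthfd1l was 0.026. Leaving out 1 library, the log2 differences at 200 ppb ran from -0.21 to 0.343 for phgdh, -0.064 to 0.173 for psat1, -0.261 to 0.091 for psph, -0.023 to 0.299 for shmt1, -0.059 to 0.309 for shmt2, -0.008 to 0.115 for mthfd2, -0.366 to 0.219 for mthfd1l, -0.381 to 0.251 for MTHFD1 ENSDARG00000018266, -0.207 to 0.086 for MTHFD1 ENSDARG00000040492 and -0.032 to 0.089 for MAT2A ENSDARG00000037121. aldh1l2 kept its sign under all 18 alternatives and ran from 0.105 to 0.252 with 1 library left out. The lowest of these leave-out values came without 200 ppb replicate 2 for each gene except MAT2A ENSDARG00000037121.

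At 800 ppb the count of genes called over all genes was 9 by the site fit, 43 in DESeq2, 2 in limma-voom, 65 by the batch fit, 1 in the provider's libraries and 15 in the recovered reads. It was 0 to 9 with 1 library left out, and 0 without 0 ppb replicate 4 or 5 or 800 ppb replicate 1. Of the other one-carbon genes 0 were called by the site fit, 1 in DESeq2 and 2 by the batch fit. Numbers do not pair the 0 and 800 ppb libraries, whose deviations correlated at -0.198 and 0.0397. A replicate block with the site term called 6590 genes, 50 of them other one-carbon genes, and gave phgdh 0.329 and psat1 0.653 on the log2 scale. In this block 0 ppb replicates 4 and 5 share their number with no other library, so they do not enter its comparison. It therefore sets the 800 ppb libraries of batch 4 against libraries of other batches. Dose and batch cannot be told apart in it, and its values are not read as a dose difference. In the batch fit, leaving out 1 library, chosen after seeing the data, gave 33 genes without 800 ppb replicate 1 to 114 without 800 ppb replicate 2, and 0 to 4 other one-carbon genes. The motif search in promoters was not run. The 800 ppb group has 2 libraries, both in batch 4, so no other batch could check its values.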
